A study of Mus musculus with 32 samples.

Results

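Fibro-adipogenic progenitors (FAPs) and endothelial cells were compared within diseased muscle, as 8 of the 32 RNA-seq libraries of a study of mice with an inducible DUX4 gene. DUX4 encodes an embryonic transcription factor, and its activity in skeletal muscle causes facioscapulohumeral dystrophy. The 4 PDGDUX libraries were made from PDGFRa+ FAPs of DUX4 mice, and the 4 CD31DUX libraries from CD31+ endothelial cells of DUX4 mice. The same cell types from wild-type (WT) mice, 3 PDGWT and 3 CD31WT libraries, served to read which differences between the cell types were larger or smaller in DUX4 muscle. Membership came from the labels alone. All 14 sorted libraries, WT included, came from mice fed doxycycline chow, and each held RNA of 75000 cells sorted from hind limb muscle. Neither the promoter that drives the DUX4 gene, the age or sex of the mice nor the time point of the sort is given in the labels. The labels leave unstated whether libraries came from different animals, so p-values measure only the spread between these samples, which may be technical.

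FAPs are the resident connective tissue cells of skeletal muscle. They lay down collagens and proteoglycans, support muscle stem cells after injury, and can give rise to fibroblasts and fat cells in chronic disease. Endothelial cells line the capillaries, arteries, veins and lymphatics of muscle, are recognised by adherens junction and VEGF receptor genes, and are a main target of growth factors that FAPs secrete. A sort on a surface protein enriches 1 of these populations, and its library still carries RNA of any other cell that passed the gate.

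Library totals were 11 to 13.7 M counts in PDGDUX and 15.7 to 20.7 M in CD31DUX, so depth went with cell type in DUX4 muscle. With all libraries thinned to the lowest total, 2821 genes were higher and 2885 lower in PDGDUX, against 2782 and 2950 without thinning. A total of 3 counts corresponded to 0.131 to 0.321 CPM (counts per M library counts, scaled by trimmed mean of M-values factors), a limit that covers counting error only. PDGDUX libraries detected 17742 to 18233 genes and CD31DUX libraries 18315 to 21269, with replicate 1 of CD31DUX the lowest of its group. In every sorted library the mean rank correlation with the other libraries of its group was between 0.934 and 0.968. These are bulk samples, in which fewer cells of a type and less RNA per cell cannot be told apart. The human DUX4 transgene itself was not analysed here, and Duxf3, the related mouse gene, did not exceed 0.104 CPM in any sorted library.

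The cell types were first checked against the genes that mark them. Pdgfra encodes the surface receptor on which FAPs were sorted. It stood at 1308, 1308, 1062 and 856 CPM in PDGDUX, against 119, 198, 139 and 147 CPM in CD31DUX. Dcn, which encodes the collagen-binding proteoglycan decorin, was at 24387, 27054, 26705 and 26610.0 CPM in PDGDUX and 4329, 5830.5, 5165 and 5129.8 CPM in CD31DUX. Both FAP genes were higher in every PDGDUX library than in any CD31DUX library, and both remained well above zero in the endothelial sort. Pecam1 encodes CD31, the sort antigen of endothelial cells, and was at 18.1, 24.3, 22.3 and 20.6 CPM in PDGDUX, against 1059.7, 854, 875 and 911 CPM in CD31DUX. Cdh5, the gene for the junction protein VE-cadherin, was at 2.4, 4.49, 3.89 and 1.71 CPM in PDGDUX and 208, 205, 187 and 176 CPM in CD31DUX. The labels and the markers thus named the same cells in each of the 8 libraries. Pdgfra and Pecam1 were used for the sort and their differences are no finding. Dcn differed by a log2 of 2.36 ± 0.14 (± SE, adjusted p = 3.53e-09) and Cdh5 by -5.97 ± 0.29 (adjusted p = 3.71e-10, edgeR quasi-likelihood test with Benjamini-Hochberg adjustment, here and below). A positive log2 difference means higher in FAPs.

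**Figure D1:**
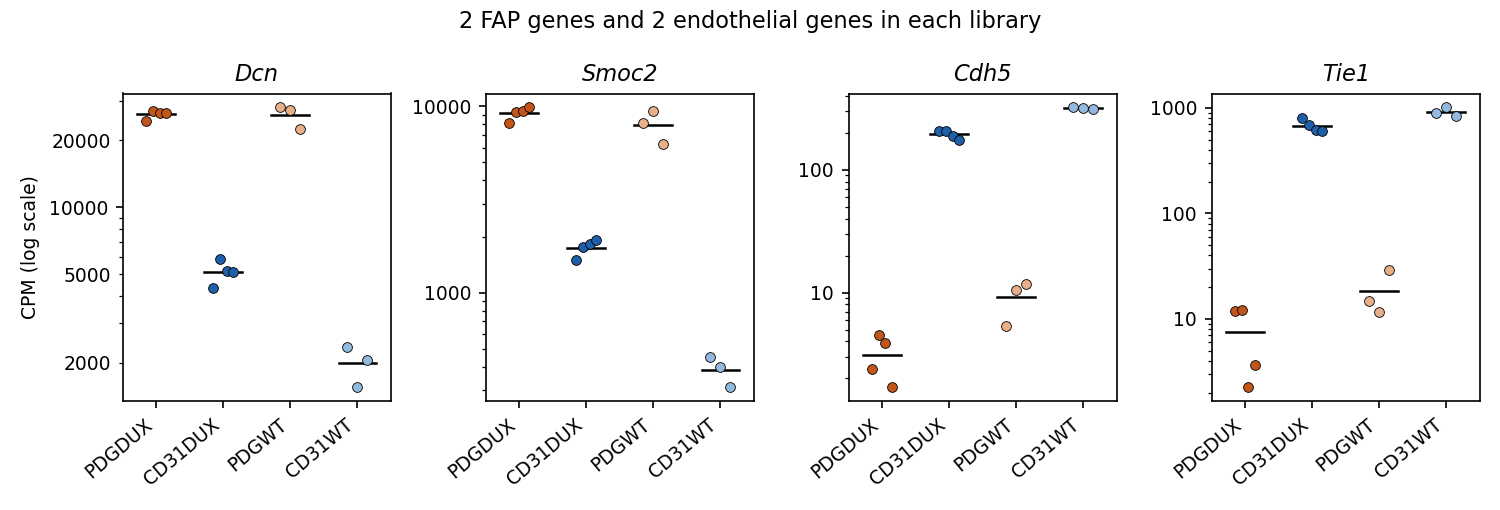
CPM of Dcn, Smoc2, Cdh5 and Tie1 in each sorted library, on log axes, by group (points, libraries; bars, group means). The FAP genes were higher in PDGDUX than in CD31DUX and the endothelial genes lower, and the gap was narrower in DUX4 than in WT for Dcn and Smoc2 and not narrower for Cdh5 and Tie1.

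The RefSeq promoters (GRCm38.p6, from 250 bases before to 50 after the start) of 3 genes that stand for the patterns described below are shown here. Gsn, the gene for the actin-severing protein gelsolin (ENSMUSG00000026879), had the smallest p of the FAP core genes. Tie1 (ENSMUSG00000033191), an endothelial receptor tyrosine kinase gene, stands for the endothelial core. Pgf (ENSMUSG00000004791), the gene for placental growth factor, was the gene whose cell-type difference changed sign between DUX4 and WT muscle with the smallest p. The windows are chr2:35256109-35256408 on the plus strand for Gsn (the most upstream of 3 entries), chr4:118489800-118490099 on the minus strand for Tie1 and chr12:85177264-85177563 on the minus strand for Pgf (the more upstream of 2 entries). Capitals mark the letters AGGAAG on either strand (CTTCCT on the other), which contain the GGAA core that ETS transcription factors bind.
Gsn: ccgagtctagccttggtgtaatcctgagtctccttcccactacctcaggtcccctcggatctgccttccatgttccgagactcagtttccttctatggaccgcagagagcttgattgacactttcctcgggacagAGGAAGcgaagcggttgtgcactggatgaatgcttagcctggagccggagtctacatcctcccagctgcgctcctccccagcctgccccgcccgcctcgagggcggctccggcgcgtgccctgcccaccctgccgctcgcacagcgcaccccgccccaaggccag
Tie1: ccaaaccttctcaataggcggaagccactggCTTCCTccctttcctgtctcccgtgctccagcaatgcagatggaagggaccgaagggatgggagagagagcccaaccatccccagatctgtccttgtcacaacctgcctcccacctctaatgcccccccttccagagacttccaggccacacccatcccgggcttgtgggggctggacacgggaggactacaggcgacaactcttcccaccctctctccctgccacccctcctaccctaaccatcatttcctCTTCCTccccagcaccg
Pgf: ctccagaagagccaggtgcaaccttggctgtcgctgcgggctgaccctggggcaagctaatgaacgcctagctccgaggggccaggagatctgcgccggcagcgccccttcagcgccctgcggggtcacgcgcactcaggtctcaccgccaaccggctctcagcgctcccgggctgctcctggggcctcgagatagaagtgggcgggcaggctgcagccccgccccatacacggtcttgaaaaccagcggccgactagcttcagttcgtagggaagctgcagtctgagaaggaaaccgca
The Gsn window held 1 match, the Tie1 window 2 and the Pgf window 0, and 35.4% of the 32851 promoters of the table held at least 1. A match describes these letters only. Of the 28 FAP core and 28 endothelial core genes, 14 and 13 had a promoter in the table, too few for a comparison of the lists, which is void.

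FAPs and endothelial cells of DUX4 muscle differed in a large part of the measured transcriptome, and the widest gaps lay on the endothelial side. Of 17008 genes tested, 5732 were called at an adjusted p under 0.05 (33.7%). Of these, 2782 were higher in PDGDUX (16.4%) and 2950 were lower (17.3%). The groups of 4 libraries did not overlap in 6270 genes (36.9%). Differences of at least 5 on the log2 scale were called for 506 genes (2.98%), of which 18 were higher in PDGDUX (0.106%) and 488 lower (2.87%). Differences of 2 to 5 were called for 1323 genes (7.78%), with 386 higher (2.27%) and 937 lower (5.51%). Smaller differences leaned the other way. Between 1 and 2 on the log2 scale lay 1856 called genes (10.9%), with 1086 higher (6.39%) and 770 lower (4.53%), and under 1 lay 2047 (12%), with 1292 higher (7.6%) and 755 lower (4.44%). The median over all genes tested was a log2 difference of -0.06. Scaling by total counts alone moved that median by -0.39, and the share of called genes that were higher in PDGDUX was then 22.3%, against 48.5% as scaled here. The 18 genes at the FAP end were 0 when only the DUX4 libraries were fitted and 42 without a filter on low counts, and the 506 were 328 and 294 with only the DUX4 libraries and with a minimum of 50 counts.

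The endothelial programme was the sharpest difference between the sorts. All 28 tested genes of a list of endothelial core genes, the sort antigen gene Pecam1 among them, were lower in PDGDUX, 22 of them by a log2 of 5 or more, with a median of -5.92 (all genes, -0.06). Tie1 was at 12, 12.1, 2.28 and 3.68 CPM in PDGDUX, against 801, 683, 613 and 602 CPM in CD31DUX, a log2 difference of -6.50 ± 0.51 (adjusted p = 4.97e-07). Egfl7, which encodes a protein secreted by endothelium that guides vessel formation, was at 4.61, 3.1, 2.47 and 1.88 CPM in PDGDUX and 270.1, 230.2, 265 and 249 CPM in CD31DUX, a difference of -6.39 ± 0.26 (adjusted p = 7.31e-11). For both genes every PDGDUX library lay far below every CD31DUX library, without overlap. The nitric oxide synthase gene Nos3 had the widest gap of the list, at 1.57, 2.35, 3.89 and 1.29 CPM in PDGDUX and 329.8, 319, 239 and 246 CPM in CD31DUX (-6.97 ± 0.32, adjusted p = 3.5e-10). Ecscr, a regulator of endothelial chemotaxis, differed by -6.02 ± 0.22 (adjusted p = 1.94e-11). The narrowest gap was that of Eng, which encodes the TGF-beta co-receptor endoglin. Eng was at 167, 153, 168 and 125 CPM in PDGDUX and 405, 333, 315 and 289 CPM in CD31DUX (-1.13 ± 0.13, adjusted p = 4.67e-06).

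Lymphatic genes were the most extreme of the endothelial lists. Of 7 tested, 6 were lower in PDGDUX and 1 was higher, with a median of -7.26. Mmrn1, the gene for the matrix protein multimerin 1, was at 0.184, 0.107, 0.38 and 0.0857 CPM in PDGDUX, with only replicate 3 above the level of 3 counts, and at 1116, 881, 1101 and 826 CPM in CD31DUX. Lyve1, which encodes the hyaluronan receptor of lymphatic endothelium, was at 0.738, 5.99, 5.32 and 1.37 CPM in PDGDUX and 575, 613, 875 and 563 CPM in CD31DUX (-7.64 ± 0.74, adjusted p = 6.58e-06). Flt4, the gene for VEGF receptor 3, was at 0.645, 0.321, 1.99 and 4.11 CPM in PDGDUX, against 391, 289, 379 and 234 CPM in CD31DUX (-7.47 ± 0.53, adjusted p = 1.43e-07). Each of these genes separated the groups without overlap, and for Lyve1 replicate 3 of CD31DUX was the highest library. The member that was higher in FAPs was Pdpn, the gene for podoplanin, a mucin-type protein that connective tissue cells also carry (1.87 ± 0.25, adjusted p = 2.11e-05). The summed lymphatic markers were 110 to 266 CPM in PDGDUX, 4360 to 7040 in CD31DUX, 88.5 to 135 in PDGWT and 675 to 1010 in CD31WT.

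Blood vessel genes mostly followed the same direction with smaller gaps. In a list of 20 arterial and venous genes, 19 were lower in PDGDUX and 1 was not called, with a median of -4.59. The arterial ligand gene Efnb2 was at 18.4, 16.9, 23 and 16.1 CPM in PDGDUX and 105, 98, 111 and 98.2 CPM in CD31DUX (-2.47 ± 0.19, adjusted p = 3.98e-08), and its venous receptor gene Ephb4 differed by -2.36 ± 0.19 (adjusted p = 8.77e-08). Of 11 endothelial adhesion genes, Pecam1 included, 7 were lower and 2 higher, with a median of -2.07, and 1 was higher without replicate 1 or 4 of PDGDUX or replicate 1, 2 or 3 of CD31DUX. Of 11 genes for fatty acid uptake by capillaries, 9 were lower in PDGDUX and 2 were higher, with a median of -3.59. Fabp4, which encodes a fatty acid carrier of capillary endothelium and fat cells, was at 62, 49.8, 37.7 and 45.4 CPM in PDGDUX, against 2511, 2205, 2247 and 2328 CPM in CD31DUX. Gpihbp1, the endothelial anchor of lipoprotein lipase, was at 4.33, 4.7, 1.61 and 3.34 CPM in PDGDUX and 309, 326, 239 and 349 CPM in CD31DUX. Both were more than an order of magnitude apart in every pair of libraries (-5.58 ± 0.28, adjusted p = 5.85e-10, and -6.45 ± 0.32, adjusted p = 7.78e-10). Lpl, the lipase that binds this anchor and is made by the cells around the vessel, went the other way, at 1092, 1484, 1719 and 1246 CPM in PDGDUX and 978, 947, 687 and 990.5 CPM in CD31DUX (0.62 ± 0.17, adjusted p = 0.0086), and was not called when scaled by total counts alone. The other gene higher in PDGDUX was Slc27a4, a fatty acid transport protein gene (0.78 ± 0.29, adjusted p = 0.0468). Its call was lost without replicate 1 or 3 of PDGDUX, replicate 2 or 3 of PDGWT, or any replicate of CD31DUX or CD31WT (adjusted p up to 0.215).

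The FAP programme separated the sorts in nearly every gene, by smaller differences than the endothelial programme. Of 28 FAP core genes, the sort antigen gene Pdgfra among them, 26 were higher in PDGDUX and 2 were not called, with a median of 2.13 and none at 5 or more. Gsn was at 96429, 102180.0, 90189 and 82397 CPM in PDGDUX, against 16969, 20187, 18291 and 17681 CPM in CD31DUX, a difference of 2.34 ± 0.14 (adjusted p = 3.37e-09). Smoc2, which encodes a secreted calcium-binding matrix protein (ENSMUSG00000023886, chromosome 17, 14279506 to 14404790, GRCm38), was at 8159, 9369, 9408 and 9866 CPM in PDGDUX and 1492, 1762, 1814 and 1913 CPM in CD31DUX (2.40 ± 0.15, adjusted p = 5.77e-09). The lowest PDGDUX library was several times the highest CD31DUX library for both, yet the CD31DUX levels were far from 0. The 2 genes not called were Tcf7l2, a Wnt pathway transcription factor gene at 82.7, 55, 66.3 and 51.6 CPM in PDGDUX and 49.5, 55.3, 56.4 and 40.9 CPM in CD31DUX, and Twist2, a mesenchymal transcription factor gene. Twist2 was at 7.47, 9.2, 5.13 and 6.34 CPM in PDGDUX and 1.32, 2.37, 1.78 and 2.22 CPM in CD31DUX (1.87 ± 0.73, adjusted p = 0.0617), and it was called without replicate 1, 2 or 3 of CD31WT (adjusted p 0.014, 0.00309 and 0.0435) and with DESeq2 (0.0227), voom (0.00233), thinning to the lowest total (0.0424) and only the DUX4 libraries (0.0023).

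Genes of both described FAP subtypes were higher in PDGDUX. Of 10 genes of the adventitial subtype, which lies around larger vessels, 7 were higher in PDGDUX and 3 were not called, with a median of 1.89. Pi16, which encodes a peptidase inhibitor used to mark that subtype, was at 443, 428, 464 and 282 CPM in PDGDUX and 102, 89.2, 106 and 83 CPM in CD31DUX (2.09 ± 0.23, adjusted p = 2.72e-06). Of 12 interstitial subtype genes, 11 were higher and 1 was lower, with a median of 2.38. Crispld2, a secreted protein gene, was at 1086, 1148, 1194 and 1160.0 CPM in PDGDUX, against 288, 285, 270.0 and 275 CPM in CD31DUX (2.04 ± 0.11, adjusted p = 1.37e-09). The lower gene was Vcam1, an adhesion molecule that activated endothelium also carries (-1.0 ± 0.23, adjusted p = 0.00249).

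The fibrillar matrix lay on the FAP side. In a list of 24 fibrillar collagens and collagen assembly genes, 22 were higher in PDGDUX and 2 were not called, with a median of 1.94. Col1a1, the gene for the main chain of type I collagen, was at 3650.1, 3399.8, 3801 and 3173 CPM in PDGDUX and 1091, 1049, 985 and 803 CPM in CD31DUX (1.84 ± 0.24, adjusted p = 2.23e-05). Col5a1, which encodes a chain of the collagen that nucleates fibrils, was at 1205, 890.2, 861 and 997 CPM in PDGDUX, against 211, 243, 246 and 244 CPM in CD31DUX (2.07 ± 0.14, adjusted p = 1.54e-08). Pcolce, an enhancer of procollagen cleavage, was at 1575, 1405, 1576 and 1532 CPM in PDGDUX and 375, 349, 394 and 355 CPM in CD31DUX (2.05 ± 0.12, adjusted p = 3.41e-09). None of the 3 genes overlapped between the groups.

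Basement membrane and proteoglycan genes followed the fibrillar matrix with exceptions. Of 17 basement membrane genes, 13 were higher in PDGDUX and 1 was lower, with a median of 1.28. Lamc1, the gene for the laminin gamma 1 chain, was at 1421, 1418, 1139.6 and 1075 CPM in PDGDUX and 373, 338, 288 and 286 CPM in CD31DUX (1.98 ± 0.15, adjusted p = 5.95e-08). Hspg2, which encodes perlecan, differed by 2.06 ± 0.17 (adjusted p = 7.94e-08). The exception was Lama5, the laminin chain of mature vessel walls, at 0.553, 2.03, 4.27 and 0.0857 CPM in PDGDUX and 105, 106, 92.2 and 63.3 CPM in CD31DUX (-5.74 ± 0.62, adjusted p = 9.33e-06), with 2 of the PDGDUX libraries under 1 CPM. Of 24 proteoglycan and elastic fibre genes, 18 were higher, 1 was lower and 5 were not called, with a median of 1.47. Fbln1, which encodes the matrix glycoprotein fibulin 1, was at 425, 405, 428 and 332 CPM in PDGDUX and 122, 136, 121 and 132 CPM in CD31DUX (1.64 ± 0.11, adjusted p = 1.13e-08). Mfap5 and Fbn1, genes of the elastic microfibril, differed by 2.19 ± 0.15 (adjusted p = 1.84e-08) and 2.06 ± 0.17 (adjusted p = 7.94e-08). The lower gene was Fmod, for the collagen-binding proteoglycan fibromodulin of tendon, at 42.7, 84, 37.7 and 69.7 CPM in PDGDUX against 992, 767, 586 and 1037 CPM in CD31DUX (-3.85 ± 0.25, adjusted p = 1.07e-08). Genes of tendon, cartilage and bone were also split, with 4 of 15 higher, 8 lower and a median of -0.99. Chad, which encodes the cartilage and tendon protein chondroadherin, was at 3.78, 4.6, 6.27 and 6 CPM in PDGDUX and 118, 99.5, 121 and 219 CPM in CD31DUX, again without overlap (-4.75 ± 0.31, adjusted p = 1.06e-08).

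Matrix proteases and their inhibitors were divided between the cell types. Of 25 genes, 16 were higher in PDGDUX, 4 were lower and 5 were not called, with a median of 1.24. Plau, the gene for the urokinase plasminogen activator, was at 179, 182, 182 and 297 CPM in PDGDUX and 12.2, 24.1, 13.5 and 25.6 CPM in CD31DUX (3.48 ± 0.30, adjusted p = 3.25e-07). Mmp2, for gelatinase A, was at 3568, 3488, 3671 and 3234 CPM in PDGDUX, against 852, 943, 909 and 974 CPM in CD31DUX (1.92 ± 0.12, adjusted p = 8.15e-09). Adamts2, which encodes the procollagen N-proteinase, differed by 2.02 ± 0.15 (adjusted p = 3.33e-08). In the opposite direction, the metalloprotease inhibitor gene Timp4 was at 3.78, 3.74, 1.33 and 6.68 CPM in PDGDUX and 314, 313, 171 and 395 CPM in CD31DUX (-6.25 ± 0.43, adjusted p = 6.45e-08).

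**Figure D2:**
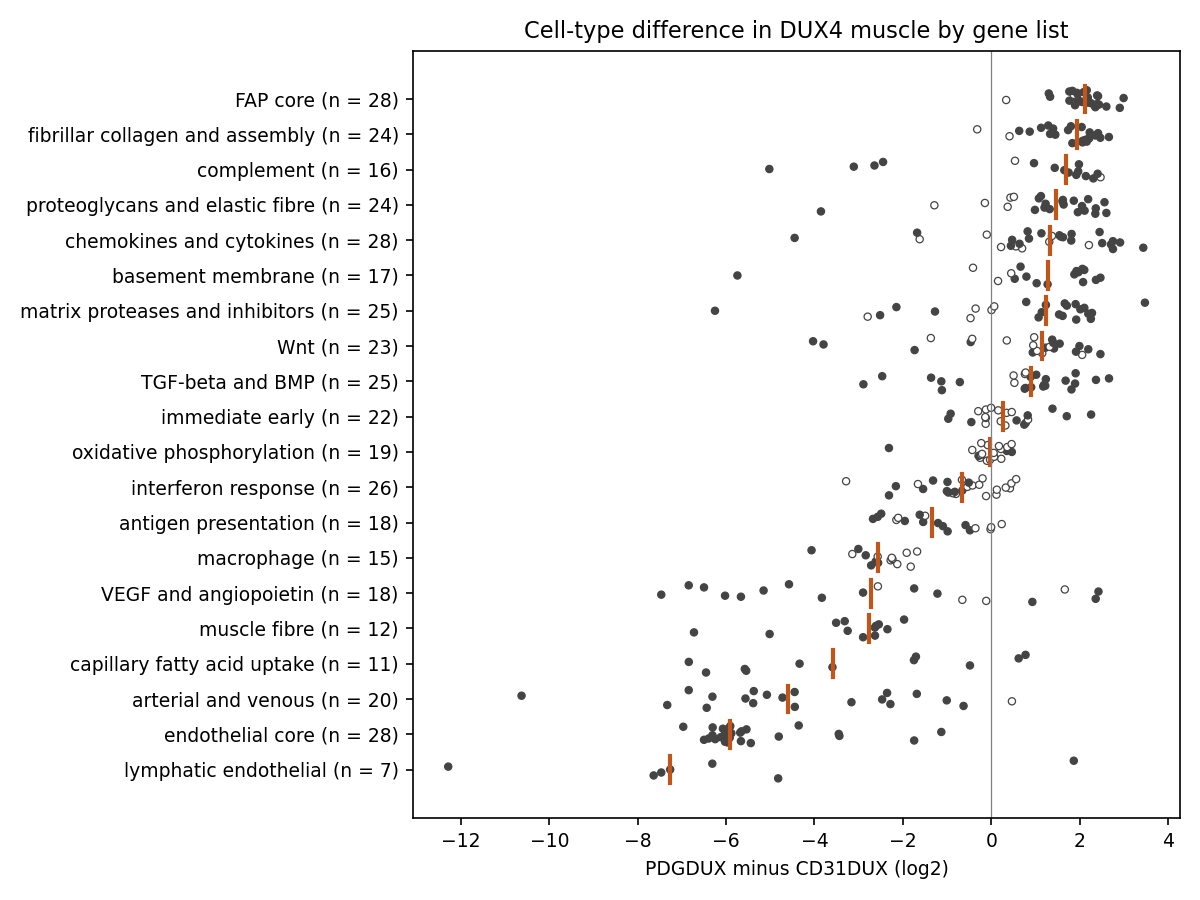
Log2 difference PDGDUX minus CD31DUX of each tested gene in 20 lists (filled points, called; open points, not called; orange bars, list medians). List medians are -3.59 for capillary fatty acid uptake, -4.59 for arterial and venous genes, -5.92 for the endothelial core and -7.26 for lymphatic genes, whereas the FAP core median is 2.13 and the fibrillar collagen median is 1.94.

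Genes of ligands and their receptors lay in opposite sorts in some pairs and in the same sort in others. Of 40 ligand and receptor pairs drawn up from background knowledge, 8 had a ligand higher in PDGDUX with a receptor higher in CD31DUX, 6 had the reverse, 8 had both genes higher in CD31DUX and 3 both higher in PDGDUX. The 6 include Pdgfa with Pdgfra, whose side was set by the sort. The remaining pairs had at least 1 gene that was not called or not tested. Among all genes tested, 16.4% were higher and 17.3% lower in PDGDUX, and the share of opposite pairs among unrelated genes was not computed. No test over the pairs was run, and the pairs are given as single cases. The VEGF and angiopoietin list itself was mostly endothelial, with 3 of 18 genes higher in PDGDUX, 11 lower and a median of -2.73. The 3 were ligand genes. Angpt1, which encodes the vessel-stabilising ligand angiopoietin 1, was at 55.2, 70.7, 68.6 and 45.2 CPM in PDGDUX and 12.5, 10.1, 14.5 and 7.45 CPM in CD31DUX (2.43 ± 0.37, adjusted p = 0.000107), and its receptor gene Tek was at 106, 91.3, 89.7 and 57.2 CPM in PDGDUX and 397, 256, 254 and 246 CPM in CD31DUX (-1.74 ± 0.21, adjusted p = 8.57e-06). Vegfa differed by 0.93 ± 0.21 (adjusted p = 0.00248), and the gene of its main signalling receptor, Kdr, stood at 8.02, 8.34, 6.46 and 3.86 CPM in PDGDUX and 449, 407, 459.7 and 412 CPM in CD31DUX (-6.02 ± 0.30, adjusted p = 6.47e-10). Both receptor genes were lower in every PDGDUX library, Kdr by far more than Tek. The lymphatic growth factor gene Vegfd was at 17.3, 14.4, 6.46 and 8.05 CPM in PDGDUX and 2.36, 2.37, 1.88 and 2.35 CPM in CD31DUX (2.36 ± 0.65, adjusted p = 0.0105), opposite to its receptor gene Flt4. Among guidance genes, Sema3c was higher in PDGDUX (1.64 ± 0.40, adjusted p = 0.00544) and its receptor gene Plxnd1 was lower (-1.80 ± 0.22, adjusted p = 9.25e-06).

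In the other direction, endothelial cells carried platelet-derived growth factor genes and FAPs the receptor gene Pdgfrb. Pdgfb was at 0, 0.535, 0 and 0.771 CPM in PDGDUX and 5.11, 18.9, 15.8 and 18.2 CPM in CD31DUX (-5.43 ± 0.92, adjusted p = 0.000343). Pdgfa was at 4.61, 5.67, 3.04 and 4.54 CPM in PDGDUX and 17.6, 18.9, 24.2 and 29.4 CPM in CD31DUX (-2.33 ± 0.28, adjusted p = 6.54e-06). Pdgfrb, the receptor gene for the B chain, was at 463, 524, 547 and 412 CPM in PDGDUX, against 186, 189, 155 and 191 CPM in CD31DUX (1.43 ± 0.15, adjusted p = 1.16e-06). All 3 genes separated the libraries of the cell types, and Pdgfb was without a count in 2 PDGDUX libraries. Edn1, which encodes the vasoconstrictor endothelin 1, was lower in PDGDUX (-3.31 ± 0.32, adjusted p = 7.12e-07) and its receptor gene Ednra was higher (1.09 ± 0.28, adjusted p = 0.00701), a call that was lost when scaled by total counts alone. The TGF-beta and BMP list was split, with 15 of 25 genes higher, 6 lower and a median of 0.89. Id1, a target gene of BMP signalling, was at 31.4, 42.9, 48.5 and 46.3 CPM in PDGDUX and 192, 261, 244 and 238 CPM in CD31DUX (-2.47 ± 0.17, adjusted p = 1.61e-08). In the Wnt list 10 of 23 genes were higher and 4 lower, with a median of 1.15. The 4 lower genes were 2 without replicate 1 or 4 of PDGDUX or replicate 1 or 2 of CD31DUX. Sfrp1, a secreted Wnt inhibitor, was among the higher genes (2.20 ± 0.21, adjusted p = 5.71e-07). Of 20 genes of IGF signalling and imprinted growth control, 10 were higher and none was lower, with a median of 1.03, and Igfbp6, which encodes an IGF2-binding protein, differed by 2.19 ± 0.15 (adjusted p = 1.27e-08).

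Signals to leukocytes were higher in FAPs. Of 28 chemokine and cytokine genes, 18 were higher in PDGDUX, 2 were lower and 8 were not called, with a median of 1.34. With total counts as the scale 4 were lower. Cxcl5, a neutrophil attractant, was at 30.7, 39.1, 101 and 173 CPM in PDGDUX and 5, 4.11, 5.96 and 16.5 CPM in CD31DUX (3.44 ± 0.58, adjusted p = 0.00045). Ccl7, a monocyte attractant, was at 883, 862, 1072 and 2288 CPM in PDGDUX and 143, 127, 163 and 244 CPM in CD31DUX (2.92 ± 0.31, adjusted p = 4.57e-06). Replicate 4 was the highest library of both groups for both genes, and the groups did not overlap. Cxcl14, a chemokine made by stromal cells, was at 2395, 2482, 2865 and 2351 CPM in PDGDUX, against 344, 443, 451 and 305 CPM in CD31DUX (2.71 ± 0.18, adjusted p = 1.06e-08). Other inflammatory genes of stromal cells were among the widest gaps on the FAP side. They were Ptx3, a soluble pattern receptor gene (3.0 ± 0.28, adjusted p = 5.99e-07), Tnfaip6, which encodes a hyaluronan-binding protein (2.86 ± 0.20, adjusted p = 1.53e-08), and Ptgs2, for the prostaglandin synthase COX-2 (2.85 ± 0.30, adjusted p = 2.82e-06). The 2 lower members of the chemokine list were the stem cell factor gene Kitl (-1.68 ± 0.11, adjusted p = 1.39e-08) and Ackr1, a chemokine-binding receptor of venules. Ackr1 was at 15.2, 10.1, 14.9 and 12.3 CPM in PDGDUX and 248, 194, 407 and 297 CPM in CD31DUX (-4.45 ± 0.37, adjusted p = 3.77e-07), opposite to its ligand gene Ccl2 (2.51 ± 0.41, adjusted p = 0.000324).

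Complement genes lay on both sides. Of 16 tested, 10 were higher in PDGDUX and 4 were lower, with a median of 1.70, and 6 were higher with total counts as the scale. C3, the central component, was at 4771, 4007, 3728 and 2365 CPM in PDGDUX and 790.3, 811, 690.2 and 511 CPM in CD31DUX (2.41 ± 0.38, adjusted p = 0.000213). C1s1, a protease of the classical pathway, was at 2141, 2181, 2417 and 2119 CPM in PDGDUX and 471, 485, 525 and 526 CPM in CD31DUX (2.14 ± 0.13, adjusted p = 5.19e-09). Serping1, the inhibitor of that protease, differed by 1.99 ± 0.13 (adjusted p = 1.1e-08). The lower genes included C3ar1, a receptor gene of leukocytes (-3.11 ± 0.77, adjusted p = 0.00623), and Cd59a, which encodes a membrane inhibitor of complement (-2.45 ± 0.23, adjusted p = 5.06e-07). Antigen presentation genes were on the endothelial side, with 11 of 18 lower in PDGDUX, none higher and a median of -1.35. The class I gene H2-K1 was at 695, 896, 877 and 929 CPM in PDGDUX and 1565, 1672, 1653 and 1838 CPM in CD31DUX (-0.99 ± 0.14, adjusted p = 4.12e-05), and the peptide transporter gene Tap1 differed by -1.09 ± 0.17 (adjusted p = 7.93e-05). B2m, the light chain of class I molecules, was at 1756, 1958, 2526 and 2831 CPM in PDGDUX and 2017, 2384, 2183 and 2496 CPM in CD31DUX, and these ranges overlapped (adjusted p = 0.998).

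Interferon response genes differed less between the cell types than antigen presentation genes did by list median. Of 26 tested, 10 were lower in PDGDUX, none was higher and 16 were not called, with a median of -0.66. Ifit2, an interferon-induced antiviral gene, was at 27.2, 18.5, 25.9 and 33.8 CPM in PDGDUX and 132, 153, 112 and 128 CPM in CD31DUX (-2.31 ± 0.23, adjusted p = 9.79e-07). Stat2, which carries the interferon signal to the nucleus, was at 111, 113, 116 and 125 CPM in PDGDUX and 194, 199, 171 and 168 CPM in CD31DUX (-0.65 ± 0.11, adjusted p = 0.000183). Ifit1, by contrast, was at 329, 548, 510.3 and 954 CPM in PDGDUX and 617, 723, 503 and 693 CPM in CD31DUX, with overlapping libraries (adjusted p = 0.866).

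Regulatory and stress genes showed mixed differences. Over all genes tested, 16.4% were called higher and 17.3% lower in PDGDUX, and counts near these shares are no trait of a list. Of 19 Hox and limb position genes, 6 were higher in PDGDUX and 5 were lower, with a median of 0.50, and 3 were higher without replicate 2, 3 or 4 of CD31DUX. Tbx15, a limb mesenchyme transcription factor gene, was at 105, 139, 129.5 and 122 CPM in PDGDUX and 18.8, 25.1, 20.7 and 34.7 CPM in CD31DUX (2.32 ± 0.30, adjusted p = 1.66e-05), whereas Hoxa5 was at 1.57, 1.82, 1.9 and 0.942 CPM in PDGDUX and 31.8, 24.7, 22.6 and 24.2 CPM in CD31DUX (-4.05 ± 0.30, adjusted p = 2.88e-08). These position genes thus went both ways without overlap. Of 15 adipogenic genes, 5 were higher and 5 were lower, and the median of 0.16 turned to -0.24 when scaled by total counts, under which 3 were higher. Cebpd and Cebpb, early adipogenic transcription factor genes, were higher in PDGDUX (1.94 ± 0.11, adjusted p = 1.44e-09, and 1.74 ± 0.15, adjusted p = 2.34e-07), and Fabp4 was lower, as given above. Of 22 immediate early genes, 7 were higher and 3 were lower, with a median of 0.27 that turned to -0.13, with 9 lower, when scaled by total counts. Myc differed by 1.39 ± 0.13 (adjusted p = 3.01e-07) and the nuclear receptor gene Nr4a3 by 2.26 ± 0.24 (adjusted p = 2.07e-06). In the heat shock list 1 of 13 genes was higher and 7 were lower, with a median of -0.57. Hspb1, a small heat shock protein gene, was at 119.7, 142, 107 and 103 CPM in PDGDUX and 771, 966, 765 and 870.2 CPM in CD31DUX (-2.84 ± 0.19, adjusted p = 1.02e-08), and Hspa1a, for inducible HSP70, differed by -1.73 ± 0.22 (adjusted p = 1.44e-05). Of 22 cell cycle genes, 10 were lower in PDGDUX and none was higher, with a median of -1.07. Ccnd1, the cyclin D1 gene, was at 1.84, 4.6, 0.854 and 4.46 CPM in PDGDUX and 36.9, 25.6, 31.4 and 23.8 CPM in CD31DUX (-3.32 ± 0.39, adjusted p = 6.03e-06). The 19 oxidative phosphorylation genes had a median of -0.03. Of 6 mouse genes that respond to DUX4, none was called between the sorts. None passed an unadjusted p of 0.05, and DESeq2 and voom called 0. When scaled by total counts 1 was lower, and the median of 0.13 turned to -0.27. In WT muscle 2 of the 6 were higher in PDGWT than in CD31WT and 0 lower, with a median of 0.8. The DUX4 minus WT change of this difference was negative for all 6 (median -1.23) and called for 0, or for 1 without replicate 1 of CD31WT.

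Markers of other cell types were also unequal between the sorts and are given beside these results. All 12 muscle fibre markers were lower in PDGDUX, with sums of 76.5 to 125 CPM in PDGDUX, 437 to 1230 in CD31DUX, 24.5 to 98.6 in PDGWT and 130 to 339 in CD31WT. Mb, the gene for myoglobin, was at 1.84, 1.07, 0.475 and 1.11 CPM in PDGDUX and 15.7, 17.1, 5.77 and 13.1 CPM in CD31DUX (-3.51 ± 0.51, adjusted p = 4.84e-05). Satellite cell markers summed to 19.8 to 44.1 CPM in PDGDUX and 230 to 313 in CD31DUX, with 6 of 7 lower. Des, the desmin gene of muscle cells and pericytes, was at 14, 9.84, 8.64 and 10.4 CPM in PDGDUX and 119.7, 130.3, 102 and 139 CPM in CD31DUX (-3.52 ± 0.18, adjusted p = 8.01e-10). Every CD31DUX library thus held more RNA of muscle markers than any PDGDUX library. Mural cell markers summed to 521 to 685 CPM in PDGDUX and 763 to 1120 in CD31DUX, with 2 of 12 higher and 10 lower. Schwann cell markers summed to 11 to 23.6 CPM in PDGDUX and 92.8 to 125 in CD31DUX, with 5 of 6 lower, among them the myelin gene Mbp (-2.67 ± 0.33, adjusted p = 1.37e-05). Macrophage markers summed to 86.4 to 371 CPM in PDGDUX and 878 to 1620 in CD31DUX, with 6 of 15 lower, and to 21.5 to 208 in PDGWT and 158 to 995 in CD31WT. Other settings called 10 (DESeq2), 15 (voom) and 14 (only the DUX4 libraries) of them, and none was higher. Cd68, a macrophage lysosomal gene, was at 3.78, 10.1, 10.4 and 9.68 CPM in PDGDUX and 29.2, 77, 44.6 and 72.3 CPM in CD31DUX (-2.72 ± 0.55, adjusted p = 0.00152). Markers of T and NK cells, neutrophils and adipocytes summed to at most 18.3 CPM in any DUX4 library, and those of B cells to 4.28 to 16.6 CPM in PDGDUX and 4.31 to 23 in CD31DUX. Red cell and platelet markers summed to 222 to 1480 CPM in PDGDUX, 835 to 3970 in CD31DUX, 846 to 5840 in PDGWT and 6930 to 13800 in CD31WT. Replicate 3 of PDGWT (5840 CPM) and replicate 1 of CD31WT (13800 CPM) were the highest of their groups for these and for neutrophil markers (70.9 and 124 CPM). No marker of the muscle fibre, satellite, mural, Schwann or macrophage lists was at 0 in every library of either DUX4 group. The part of these cells in the gene differences was not tested.

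To find which differences were sharp or blurred in disease, the cell-type difference in DUX4 muscle was set against that in WT muscle (PDGWT minus CD31WT) by an interaction term in the same fit. In WT muscle 5295 genes were called between the cell types (31.1%), 53.6% of them higher in PDGWT, or 35.4% when scaled by total counts, which moved the WT median by -0.30. A total of 3855 genes were called in both with the same sign, 67.3% of the DUX4 calls and 72.8% of the WT calls. The difference itself changed for 383 genes (2.25%), with 94 higher and 289 lower in DUX4, and the median over all genes was -0.12. Of these, 235 were blurred (1.38%), that is, of the same sign and smaller in DUX4 muscle. Another 55 were sharper (0.323%), of the same sign and larger, and 93 had opposite signs (0.547%). These classes go by the signs of the estimates, whether or not each difference was itself called. Over all genes tested, 16 were called in both DUX4 and WT muscle with opposite signs. Most blurred genes lay on the FAP side. The 210 blurred genes on the FAP side had a median log2 difference of 1.79 in DUX4 and 3.31 in WT muscle, against 25 on the endothelial side with medians of -1.02 and -2.47. These counts rest partly on single libraries. Without replicate 3 of PDGWT and replicate 1 of CD31WT together, 394 were called, with 300 blurred, 36 sharper and 58 of opposite signs. The 383 were 238 without replicate 1 and 250 without replicate 2 of PDGWT, and the 235 were 156 and 150. The 55 sharper genes were 36, 33, 33 and 32 without replicates 1, 2, 3 and 4 of CD31DUX and 35 without replicate 3 of CD31WT. The 93 with opposite signs were 58 and 56 without replicates 3 and 4 of PDGDUX, 51 without replicate 3 of CD31DUX, 41, 57 and 56 without replicates 1, 2 and 3 of PDGWT, and 180 and 55 without replicates 2 and 3 of CD31WT.

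**Figure D3:**
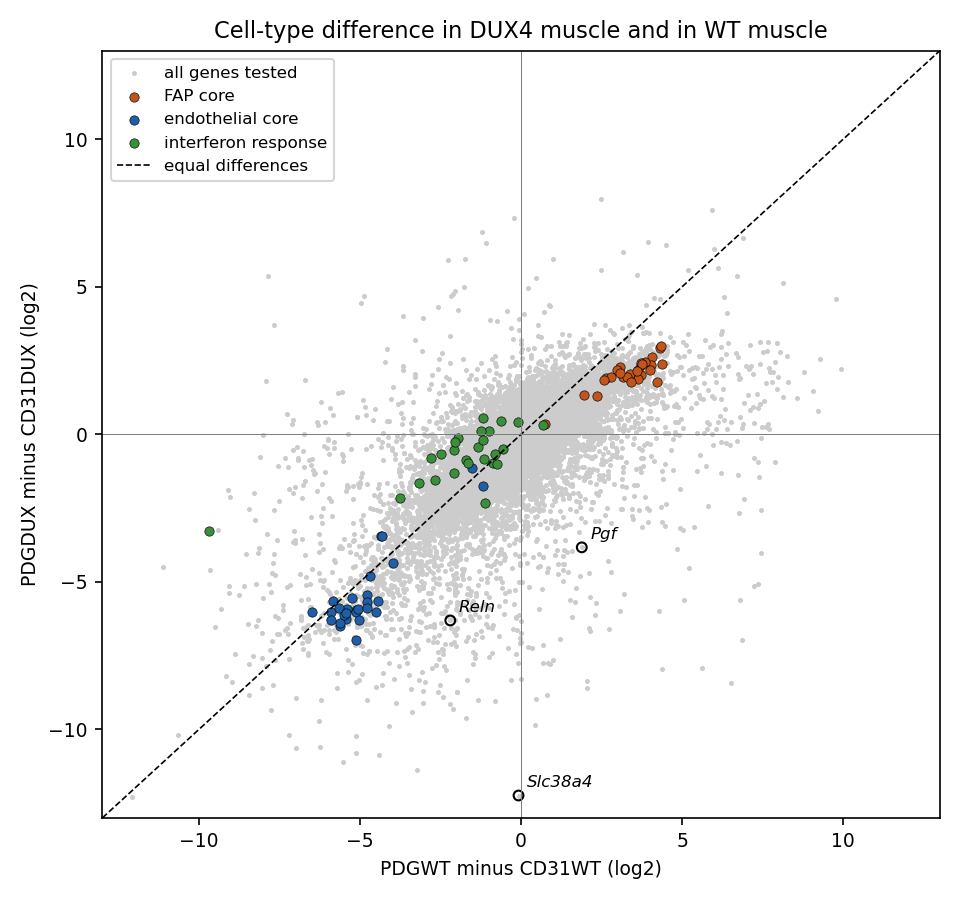
Log2 difference between the sorts of each tested gene in DUX4 muscle (vertical) and in WT muscle (horizontal), with the line of equal differences dashed. FAP core genes (orange) lie below the line at a median of 2.13 in DUX4 and 3.62 in WT, endothelial core genes (blue) lie at -5.92 and -5.11, and interferon response genes (green) lie mostly above the line. Circles mark Pgf, Reln and Slc38a4.

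The FAP core was blurred as a group. All 28 genes had a negative interaction estimate (9785 of 17008 genes did), 15 were called blurred, and the median difference was 2.13 in DUX4 and 3.62 in WT muscle. Gsn was at 103110.0, 94543 and 67064 CPM in PDGWT and 5969, 5277 and 5071 CPM in CD31WT, so that its difference was 2.34 in DUX4 and 4.02 in WT muscle (interaction -1.68 ± 0.20, adjusted p = 0.00039). Smoc2 was at 8124, 9465 and 6293 CPM in PDGWT and 449.6, 397 and 312 CPM in CD31WT (interaction -1.97 ± 0.22, adjusted p = 0.000341). For both genes the FAP sorts of DUX4 and WT mice overlapped, whereas every CD31DUX library lay above every CD31WT library. Dcn (interaction -1.35 ± 0.21, adjusted p = 0.00223) and Crispld2 (-1.24 ± 0.16, adjusted p = 0.000798) were blurred too. Pdgfra itself had an interaction of -1.41 ± 0.34 (adjusted p = 0.041), a call lost in 11 of the 14 fits that each left out 1 library (all except PDGDUX replicate 1, CD31DUX replicate 1 and CD31WT replicate 1; adjusted p up to 0.0971).

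Many matrix genes were blurred as well. Of 24 fibrillar collagen and assembly genes, 9 were blurred, or 5 without replicate 2 of PDGWT, and the list's median was 1.94 in DUX4 and 2.65 in WT muscle. Col5a1 was at 806, 1134 and 1020.2 CPM in PDGWT and 91, 71.3 and 74.5 CPM in CD31WT (interaction -1.58 ± 0.21, adjusted p = 0.000843), and Pcolce had an interaction of -1.52 ± 0.18 (adjusted p = 0.000375). Of 24 proteoglycan and elastic fibre genes, 10 were blurred, among them Fbln1 (-1.21 ± 0.16, adjusted p = 0.000915), Mfap5 (-1.44 ± 0.23, adjusted p = 0.00273) and Fbn1 (-1.34 ± 0.24, adjusted p = 0.0078). Of 25 proteases and inhibitors, 4 were blurred, among them Mmp2 (-1.57 ± 0.18, adjusted p = 0.000375) and Adamts2 (-1.28 ± 0.22, adjusted p = 0.00567). The secreted factors Cxcl14 (-1.67 ± 0.26, adjusted p = 0.00252), C1s1 (-1.20 ± 0.20, adjusted p = 0.00361) and Serping1 (-1.17 ± 0.20, adjusted p = 0.00418) were blurred too. Sox9, a transcription factor gene of cartilage and progenitor cells, was blurred from both sides. It was at 63.4, 85.8, 98.8 and 72.1 CPM in PDGDUX and 42, 41.3, 39.9 and 42.4 CPM in CD31DUX, and at 183, 162 and 127 CPM in PDGWT and 20.5, 17.9 and 18.2 CPM in CD31WT (interaction -2.11 ± 0.23, adjusted p = 0.000269). Its level was lower in the DUX4 than in the WT FAP sort and higher in the DUX4 than in the WT endothelial sort, without overlap in either. A FAP gene with almost no endothelial RNA in WT muscle was Astn2, which encodes a membrane protein known from neurons. It was at 13.5, 16.5, 14.7 and 15 CPM in PDGDUX and 1.98, 4.01, 4.66 and 2.05 CPM in CD31DUX, and at 13.3, 15.6 and 12.1 CPM in PDGWT and 0, 0.224 and 0.0591 CPM in CD31WT (adjusted p of the interaction = 0.00205). Col1a1, for which the interaction was -0.75 ± 0.36 (adjusted p = 0.375), and Plau (0.07 ± 0.43, adjusted p = 0.972) were not called, a result that does not show that their differences were equal.

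The level of each gene in the opposite sort was then compared. The FAP core genes stood in CD31DUX at a median of 22.9% of their level in PDGDUX (20.8 to 23.8 by library), and in CD31WT at 8.11% of their level in PDGWT (6.99 to 10.4). All 28 had a higher share in DUX4 muscle. In DUX4 muscle the share ranged from 12.5% to 79.1%, with Tcf7l2 the highest. The endothelial core genes stood in PDGDUX at a median of 1.63% of their level in CD31DUX (1.37 to 2.31), and in PDGWT at 2.88% of their level in CD31WT (1.89 to 4.35), with a higher share in DUX4 muscle for 5 of 28. The 210 blurred FAP genes had a median log2 ratio of DUX4 over WT of -0.05 in the FAP sort and 1.41 in the endothelial sort (all genes, -0.07 and 0), and 209 of them were above their WT level in the endothelial sort. For the 25 blurred endothelial genes the medians were 1.0 in the FAP sort and -0.35 in the endothelial sort. The blurred, sharper and opposite-sign genes, here and below, were chosen by their interaction in these same data. A shift in at least 1 sort therefore followed from the choice. The summed FAP core was 157000 to 176000 CPM in PDGDUX, 30600 to 36200 in CD31DUX, 123000 to 165000 in PDGWT and 9300 to 12500 in CD31WT. The summed endothelial core was 409 to 554 CPM in PDGDUX, 9460 to 12100 in CD31DUX, 566 to 846 in PDGWT and 13600 to 14900 in CD31WT. Thus the endothelial sort of DUX4 muscle held more RNA of FAP core genes and less of endothelial core genes than that of WT muscle. Lymphatic endothelial markers did not share that fall, with sums of 4360 to 7040 CPM in CD31DUX and 675 to 1010 in CD31WT. The part of FAPs within the CD31 sort in the blurred differences was not tested.

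**Figure D4:**
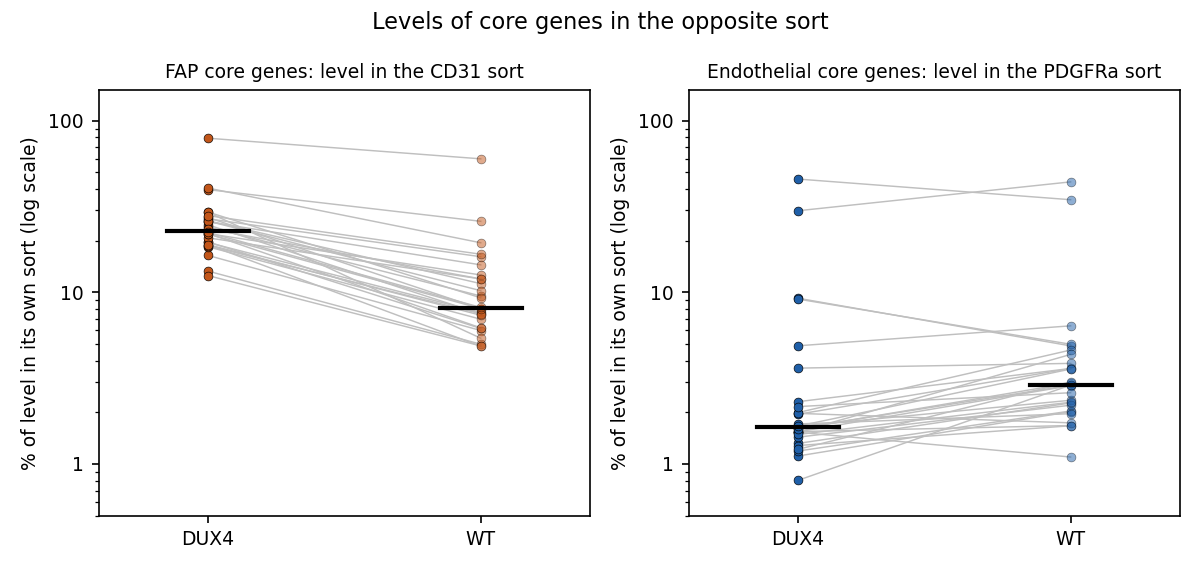
Level of each FAP core gene in the CD31 sort as a percentage of its level in the PDGFRa sort (left), and of each endothelial core gene in the PDGFRa sort as a percentage of its level in the CD31 sort (right), in DUX4 and WT muscle on log axes (points, genes; lines join a gene; bars, medians). The FAP medians are 22.9% in DUX4 and 8.11% in WT, and the endothelial medians are 1.63% and 2.88%.

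The endothelial core kept its direction and was wider in DUX4 than in WT muscle by median. Of 28 endothelial core genes, 2 were called sharper and none blurred, with medians of -5.92 in DUX4 and -5.11 in WT muscle. Ecscr was at 6, 8.33 and 11.6 CPM in PDGWT and 200.2, 204 and 192 CPM in CD31WT (interaction -1.50 ± 0.28, adjusted p = 0.00822, and not called with voom). Nos3 was at 12.2, 9.01 and 15.6 CPM in PDGWT and 365, 560.0 and 352 CPM in CD31WT (interaction -1.85 ± 0.40, adjusted p = 0.0226), a call lost without CD31DUX replicate 1 or 2, PDGWT replicate 1 or 3 or CD31WT replicate 1 or 3 (adjusted p up to 0.0768) and with voom (0.186). Both genes were lower in every PDGDUX than in any PDGWT library. In the CD31 sort Ecscr overlapped between DUX4 and WT mice and Nos3 was lower in DUX4. The 44 sharper genes on the endothelial side had medians of -5.50 in DUX4 and -2.32 in WT muscle, and a median log2 ratio of DUX4 over WT of -1.75 in the FAP sort and 0.08 in the endothelial sort.

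Reln, which encodes the secreted matrix protein reelin made by lymphatic endothelium (ENSMUSG00000042453, chromosome 5, 21884454 to 22344702, GRCm38), was sharper in DUX4 muscle. It was at 2.67, 1.28, 3.32 and 1.88 CPM in PDGDUX and 165, 191, 246 and 131 CPM in CD31DUX, and at 10.8, 6.03 and 10.3 CPM in PDGWT and 51.5, 36.3 and 36.9 CPM in CD31WT. It was lower in every DUX4 than WT FAP library and higher in every DUX4 than WT endothelial library, and its difference was -6.31 in DUX4 and -2.20 in WT muscle (interaction -4.11 ± 0.41, adjusted p = 0.000102). The rise in the endothelial sort was shared by the lymphatic list, in which all 7 genes were above their WT level there (median log2 ratio 2.13). In the FAP sort 5 of the 7 were above it (median 0.66). Vldlr, the gene of a reelin receptor, was on the FAP side in DUX4 muscle (1.83 ± 0.27, adjusted p = 6.01e-05). Slc38a4, an imprinted amino acid transporter gene, had no count in any PDGDUX library and was at 42, 27.9, 54.2 and 25.7 CPM in CD31DUX, 7.17, 10.6 and 9.18 CPM in PDGWT and 15.9, 7.39 and 5.08 CPM in CD31WT. Taking 3 counts per library as the limit, it was at least 132-fold lower in PDGDUX than in CD31DUX and at least 31.5-fold lower than in PDGWT (interaction adjusted p = 0.000101). Gper1, a G protein-coupled oestrogen receptor gene, also had no count in PDGDUX and was at 14.8, 13.8, 12.9 and 16.1 CPM in CD31DUX, at least 50.6-fold apart, whereas PDGWT held 1.11, 0.339 and 1.87 CPM and CD31WT 16.8, 35.1 and 20.3 CPM (interaction adjusted p = 0.0172, not called with voom). Des was sharper as well, at 34, 26.9 and 39.6 CPM in PDGWT and 140.3, 109 and 125 CPM in CD31WT (interaction -1.62 ± 0.26, adjusted p = 0.00273).

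Other genes changed sides or lost their difference. Pgf, a ligand of VEGF receptor 1, was at 10.1, 8.55, 9.4 and 4.88 CPM in PDGDUX and 92.6, 104, 128 and 144 CPM in CD31DUX, and at 129, 95.7 and 76.5 CPM in PDGWT and 21.7, 20.1 and 39.9 CPM in CD31WT. It was an endothelial-side gene in DUX4 muscle (-3.83 ± 0.28) and a FAP-side gene in WT muscle (1.88 ± 0.30), with no overlap in either and an interaction of -5.72 ± 0.41 (adjusted p = 5.14e-06). Fbln5, which encodes the elastic fibre protein fibulin 5, was at 327, 323, 313 and 267 CPM in PDGDUX and 375, 337, 348 and 298 CPM in CD31DUX, against 733, 667 and 470.0 CPM in PDGWT and 353, 307 and 216 CPM in CD31WT. Its difference was -0.14 ± 0.16 in DUX4 muscle (adjusted p = 0.536) and 1.09 ± 0.19 in WT muscle (interaction -1.24 ± 0.24, adjusted p = 0.0127). Among genes with opposite signs, the 58 on the FAP side of DUX4 muscle had median DUX4 over WT log2 ratios of 0.65 in the FAP sort and -0.68 in the endothelial sort. The 35 on the endothelial side had -1.33 in the FAP sort and 1.32 in the endothelial sort.

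From the 94 genes with a called positive interaction, the immune genes Trim25, Ch25h and Cxcl9 are given as single cases. For these genes FAPs of DUX4 muscle lay nearer the endothelial level. The immune genes among the 94 were not counted. Trim25, an interferon-induced ubiquitin ligase gene of RIG-I signalling, was at 92.7, 97.4, 108 and 97.7 CPM in PDGDUX and 255, 244, 196 and 185 CPM in CD31DUX, and at 40.5, 38.1 and 47.5 CPM in PDGWT and 279, 327 and 431 CPM in CD31WT. Every PDGDUX library was above every PDGWT library, and every CD31DUX library was below every CD31WT library. The difference of Trim25 between the cell types was -1.15 ± 0.15 in DUX4 and -3.04 ± 0.18 in WT muscle (interaction 1.89 ± 0.23, adjusted p = 0.000375). Ch25h, which encodes an interferon-induced cholesterol hydroxylase, was at 72.4, 65.7, 77.4 and 106 CPM in PDGDUX and 90.6, 67, 84.7 and 117 CPM in CD31DUX, and at 15.8, 25.5 and 16.4 CPM in PDGWT and 90.3, 70.6 and 75.1 CPM in CD31WT. The 2 sorts of DUX4 muscle overlapped, whereas those of WT muscle did not (interaction 1.87 ± 0.31, adjusted p = 0.00381). Cxcl9, an interferon-induced T cell attractant, was at 35, 87, 62.4 and 116 CPM in PDGDUX and 51.5, 68.3, 53 and 84.5 CPM in CD31DUX, and at 7.29, 9.55 and 8.96 CPM in PDGWT and 28, 29.6 and 39.5 CPM in CD31WT (interaction 2.13 ± 0.44, adjusted p = 0.0164). Its call was lost without replicate 1 of PDGWT (adjusted p = 0.057) and with voom (0.0874). The stem cell factor gene Kitl was also blurred on the endothelial side (interaction 0.87 ± 0.17, adjusted p = 0.0127). In the interferon list as a whole, 10 of 26 genes were lower in PDGDUX than in CD31DUX, with a median of -0.66, and 20 were lower in PDGWT than in CD31WT, with a median of -1.29. The median interaction of the list was 1.03 (all genes, -0.12). Of the 26, 24 were above their WT level in the FAP sort and 21 in the endothelial sort, with medians of 1.47 and 0.36 (all genes, -0.07 and 0). No member had a called interaction. An unadjusted p under 0.05 was reached by 8 members with a positive interaction and 1 with a negative one. DESeq2 called 5 positive and 1 negative, and the only call of voom was negative. The negative member was Ifit2 (-1.18 ± 0.34, adjusted p = 0.0868), whose difference was wider in DUX4 muscle. In fits without 1 library, 6 positive members were called without replicate 3 of PDGWT and 1 without replicate 1 of PDGDUX or replicate 1 or 2 of PDGWT, and 1 negative member without replicate 1 of CD31WT. Macrophage marker sums were higher in the DUX4 than in the WT libraries of the PDGFRa sort by median (273 CPM in PDGDUX and 53.2 in PDGWT) and of the CD31 sort (1350 in CD31DUX and 205 in CD31WT), and their part in these values was not tested. Replicate 3 of PDGWT and replicate 1 of CD31WT, which held the most neutrophil RNA, were left out together after the data were seen. Trim25 then had an interaction of 2.11, Ch25h of 1.65 and Cxcl9 of 2.25, and all 3 were called. The part of neutrophil RNA in these values was not tested.

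**Figure D5:**
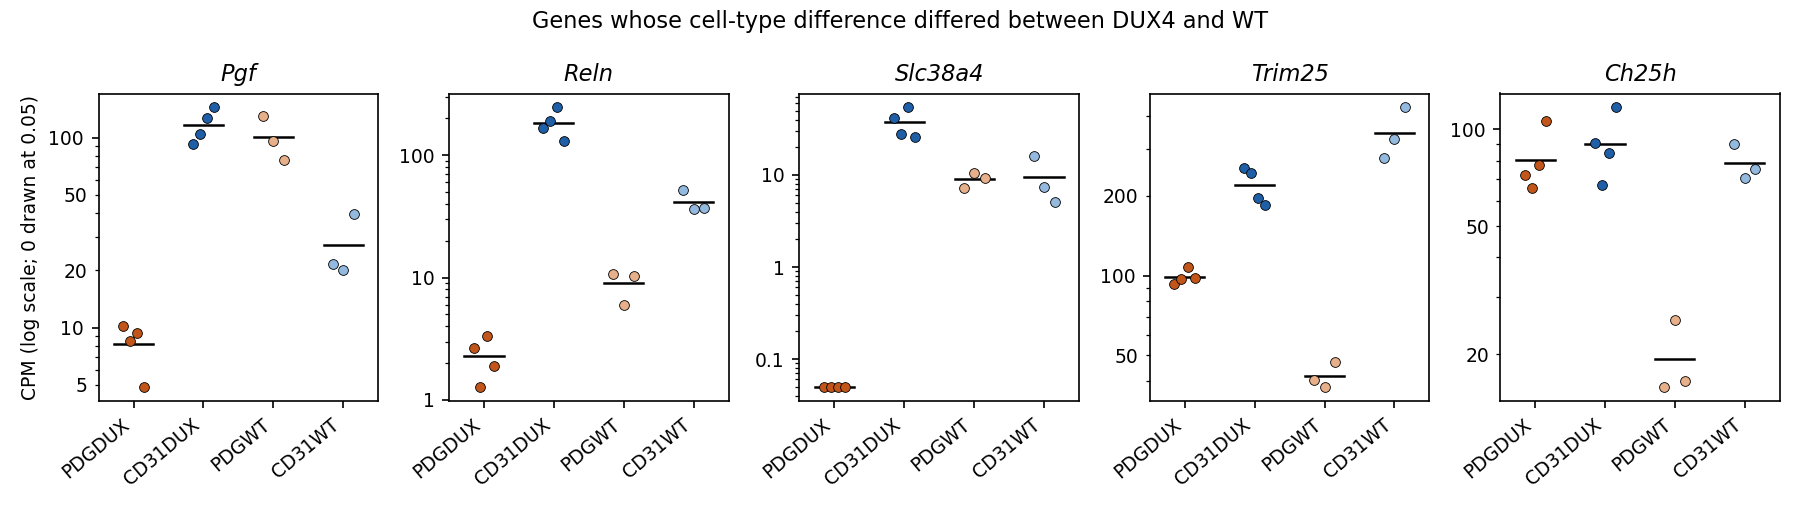
CPM of Pgf, Reln, Slc38a4, Trim25 and Ch25h in each sorted library, on log axes with 0 drawn at 0.05, by group (points, libraries; bars, group means). Pgf is lower in PDGDUX than in CD31DUX and higher in PDGWT than in CD31WT, Slc38a4 is at 0 in all 4 PDGDUX libraries, and Ch25h overlaps between the DUX4 sorts but not between the WT sorts.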

How the data were processed

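RNA of 14 sorted samples (4 PDGDUX, 4 CD31DUX, 3 PDGWT, 3 CD31WT) was converted with a low-input cDNA kit and a transposase library kit and sequenced as paired 50-base reads, per the labels' protocols. The deposited values are expected counts per gene from Salmon 0.6.0, which shares out reads that match several genes by estimation, so near-identical genes are uncertain. Base calling used CASAVA 1.8 and the build was mm10, per the submitters' processing notes. Neither the annotation release nor any filter of the authors is stated in the sources used here.

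The expected counts deposited by the authors were rounded to whole numbers and fitted with edgeR 4.0.16 (R 4.3.3): filterByExpr with a minimum of 10 counts (17008 of 43035 genes kept), TMM factors, 1 mean per group over all 14 libraries, and a robust quasi-likelihood test. P-values were adjusted by Benjamini-Hochberg over all genes tested, with a threshold of 0.05. The contrasts were PDGDUX minus CD31DUX, PDGWT minus CD31WT, and the difference between them. The SE is the log2 difference divided by the root of the F statistic. Replicates were numbered in accession order, because the labels' own numbers run on across groups. On simulated counts with 200 changed genes, the PDGDUX minus CD31DUX contrast recovered 29 of 100 genes changed by a log2 of 1 and 56 of 100 changed by 2. For the difference between the contrasts 5 and 42 of 100 were recovered. In the simulation all groups shared 1 base level for every other gene, whereas the real PDGDUX minus CD31DUX contrast called 5732 genes. The recovered shares therefore do not give the power of that contrast in the data. The false share of the calls was 5.56% for the PDGDUX minus CD31DUX contrast and 6% for the difference between the contrasts.

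The genes and the 39 lists (570 genes) were chosen with earlier results of these data known. Named genes were the 12 largest called differences in each direction (mean of the higher group 50 CPM or more) and the sort markers. They were also up to 3 called members of each list with the smallest p and 1 with the smallest difference, the 10 largest called interactions in each direction with at least 10 CPM, list members with a called interaction, and genes of the 40 pairs. Part of them is printed. Sex-linked marker genes and immunoglobulin segments were left out. Tie1, Lpl, Slc27a4, Twist2, Col1a1 and Lama5 were chosen after their values were seen. Alternatives were DESeq2 1.42.0, limma 3.58.1 (voom with sample quality weights), other scalings and filters, a minimum fold change of 2, thinning to the lowest total, only the groups compared, and leaving out each library. Promoters came from RefSeq (GRCm38.p6).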

Additional observations from a re-analysis of the deposited data

Results flagged for a closer look

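In 18 of the 232 groups of 4 libraries looked at, 1 library lay far from the other 3, as judged by its gap relative to the group's range. Chance alone flags about 1 in 20 groups. In PDGDUX, replicate 1 held 24387 CPM of Dcn against 26610.0 or more in the others, and 3.78 CPM of Cd68 against 9.68 or more. PDGDUX replicate 3 held 81.5 CPM of Kitl against at most 66.3, a muscle fibre marker sum of 76.5 CPM against at least 119, and a T and NK cell marker sum of 5.51 CPM against at most 1.6. PDGDUX replicate 4 held 297 CPM of Plau against at most 182, and 2288 CPM of Ccl7 against at most 1072.

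In CD31DUX, replicate 1 held 208 CPM of Ephb4 against at most 129, 397 CPM of Tek against at most 256, 211 CPM of Col5a1 against at least 243, and 1094 CPM of Serping1 against at least 1297. It also detected 18315 genes against at least 21196. CD31DUX replicate 3 held 875 CPM of Lyve1 against at most 613 and a lymphatic marker sum of 7040 CPM against at most 4630. It was the lowest for Lpl (687 CPM against at least 947), Vegfd (1.88 CPM against at least 2.35) and Pdgfrb (155 CPM against at least 186). CD31DUX replicate 4 held 16.5 CPM of Cxcl5 against at most 5.96. Replicates 1 and 3 of CD31DUX held 5 of the 18 each, and replicate 2 held none in either group.

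For 29 named genes the difference between FAPs and endothelial cells itself differed between DUX4 and WT muscle. Some genes were named because of a called interaction, so this count is no result of its own. Over all 17008 genes tested, 383 had a called interaction (2.25%). The log2 interaction was negative for the FAP and matrix genes Pdgfra (-1.41), Dcn (-1.35), Gsn (-1.68), Smoc2 (-1.97), Mfap5 (-1.44), Fbn1 (-1.34), Crispld2 (-1.24), Pcolce (-1.52), Col5a1 (-1.58), Fbln1 (-1.21), Fbln5 (-1.24), Mmp2 (-1.57) and Adamts2 (-1.28). It was also negative for Cxcl14 (-1.67), C1s1 (-1.20), Serping1 (-1.17), Sox9 (-2.11), Astn2 (-4.85) and Pgf (-5.72). Negative values that widened a difference towards the CD31 sort were those of Ecscr (-1.50), Nos3 (-1.85), Reln (-4.11), Des (-1.62) and Gper1 (-6.45). Slc38a4 (-12.16) was negative too, but its WT sorts overlapped. The fitted values of Slc38a4 and Gper1 rest on libraries without a count and are no bound. Positive values were those of Kitl (0.87), Trim25 (1.89), Ch25h (1.87) and Cxcl9 (2.13).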

How the results depend on the processing

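Of 4698 values of named genes under other settings, 4555 kept their side of the threshold, 79 lost a call and 64 gained one. Of the values called in either fit, 0 changed sign. Values called in neither fit were counted as kept whatever their sign. The uncalled interaction of Kdr, for instance, was -0.13 in the main fit and 0.16 without PDGWT replicate 3. Among counts, scaling by total counts alone gave 1463 genes higher and 5098 lower in PDGDUX, against 2782 and 2950, and shares of 30.2% (CD31DUX) and 9.995% (CD31WT) for the FAP core in the CD31 sort. A test against a minimum fold change of 2 gave 588 higher and 1234 lower in PDGDUX, 1137 higher and 1097 lower in PDGWT, interactions of 0 higher and 25 lower (25 in all), 13 blurred, 9 sharper and 3 of opposite signs. It left 8 of the 18 very large FAP differences and 7 of the 14 pairs in opposite directions. DESeq2 called 824 interactions (272 higher, 552 lower), with 442 blurred, 129 sharper and 253 of opposite signs. Voom gave 36 sharper genes and 2 very large FAP differences, and these very large FAP differences numbered 42 with no filter, 2 with a minimum of 50 counts and 0 with only the groups compared. The 506 very large differences were 294 with that minimum and 328 with only the groups compared. Leaving out CD31WT replicate 1 and PDGWT replicate 3 together, chosen after the data were seen, gave 57 higher interactions, 36 sharper and 58 of opposite signs. Leaving out 1 library at a time gave 37 to 171 higher interactions (lowest without PDGWT replicate 1, highest without CD31WT replicate 2), 199 to 376 lower, 238 to 541 in all, 150 to 319 blurred, 32 to 68 sharper and 41 to 180 of opposite signs. The 94 higher interactions were also 50 without PDGDUX replicate 3, 57 without PDGDUX replicate 4, 61 without CD31DUX replicate 2, 50 without CD31DUX replicate 3, 51 without PDGWT replicate 2 and 55 without CD31WT replicate 3. The cause of these shifts was not tested. A term for sex was not run, since a Y-linked gene, Ddx3y, did not exceed 0.433 CPM in any library. No paired analysis was possible because the labels' numbers run on across the groups and are never shared. Depth limits the calls of low genes: 3 counts were 0.257 to 0.321 CPM in PDGDUX.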
